A study of Mus musculus with 4 samples.

Results

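The 10 genes described here are ephrin ligands and Eph receptors: Efna1, Efna5, Efnb1, Efnb2, Epha3, Epha4, Ephb1, Ephb2, Ephb3 and Ephb4. They were chosen by symbol, and each matched 1 of the 32285 genes measured in single nuclei of mouse liver. Their unique molecular identifier (UMI) counts were summed per library within cell classes defined by marker genes. Male CKO mice, which lack Rbpj in hepatic progenitor cells only, were compared with wild-type (WT) males, with 2 libraries per genotype. Both genotypes received the liver-injuring DDC diet for 4 weeks, started at 10 to 11 weeks of age, so no uninjured liver enters the comparison. The Cre driver and the deleted part of Rbpj are not given in the sources used here. Nor is it stated that the libraries come from separate animals, so p-values rest on the spread between these libraries, which may be technical. The spread is pooled over genes in part, and wholly in the comparison of endothelial types.

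Eph receptors are receptor tyrosine kinases that bind ephrins on the surface of touching cells, and signals pass into both the receptor-bearing and the ephrin-bearing cell. A-type ephrins are held in the membrane by a lipid anchor, whereas B-type ephrins span it. Ephrin-B2 on arterial endothelium and its receptor EphB4 on venous endothelium are the classical pair that marks the arterial and venous sides of the vascular bed. Eph and ephrin contacts also sort cells into separate layers and guide migrating cells and axons.

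Rbpj, the factor deleted in CKO mice, is the DNA-binding partner of Notch receptors and recognises sites with the core TGGGAA. That core was searched on both strands, as TGGGAA or TTCCCA, in the RefSeq promoter windows of the members. They run from 250 bases before to 50 bases after the RefSeq gene start (GRCm38.p6). This start can differ from that of the loci given below, and the Efnb1 window ends before the Efnb1 locus starts. All 10 members matched the table, with 11 windows in all. The core was present in 2 of the 11, those of Efnb1 and Epha4, and in 25.6% of the 32851 windows of all genes. The windows of Efnb1 (chrX:99135811-99136110, plus strand) and Epha4 (chr1:77515039-77515338, minus strand) are shown with the core in capitals, beside that of Efnb2 (chr8:8661193-8661492, minus strand), which holds none and which belongs to the member with the smallest p in the comparison of endothelial nuclei between genotypes.
Efnb1: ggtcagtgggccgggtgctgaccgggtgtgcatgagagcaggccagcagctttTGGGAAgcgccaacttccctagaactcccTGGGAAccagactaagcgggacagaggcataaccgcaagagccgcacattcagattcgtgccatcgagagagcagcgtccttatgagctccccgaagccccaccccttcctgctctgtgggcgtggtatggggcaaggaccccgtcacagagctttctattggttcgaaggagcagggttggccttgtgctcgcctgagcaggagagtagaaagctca
Epha4: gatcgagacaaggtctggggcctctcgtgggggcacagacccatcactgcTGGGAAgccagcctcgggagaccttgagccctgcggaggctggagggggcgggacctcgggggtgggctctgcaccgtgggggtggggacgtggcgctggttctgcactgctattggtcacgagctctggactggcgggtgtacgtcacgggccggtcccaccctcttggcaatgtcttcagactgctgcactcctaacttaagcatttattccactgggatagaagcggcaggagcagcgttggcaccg
Efnb2: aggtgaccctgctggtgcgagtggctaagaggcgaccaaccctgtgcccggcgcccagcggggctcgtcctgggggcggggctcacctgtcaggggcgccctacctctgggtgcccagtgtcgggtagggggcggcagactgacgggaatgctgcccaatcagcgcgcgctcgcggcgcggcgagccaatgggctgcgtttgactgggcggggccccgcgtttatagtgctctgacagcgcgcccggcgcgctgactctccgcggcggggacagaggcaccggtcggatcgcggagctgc
A match of these letters is a description and not a binding site, and its absence holds for this window only.

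The 4 libraries held 43664 barcodes and 38003108 and 12261329 UMIs in the CKO libraries against 45620141 and 13914845 in the WT libraries, so replicate 1 was the deeper library of each genotype. After removal of 4647 likely doublets, 18256 nuclei fell into named classes and 20761 stayed unnamed, in 4 clusters with 1 main library each and few raised markers. CKO replicate 2 gave the smallest sums of endothelial-like, mesenchymal-like, cholangiocyte-like and macrophage-like nuclei, for example 154 endothelial-like nuclei. Clusters were partly split by library: 825 of the 908 nuclei of one endothelial cluster came from CKO replicate 1, whereas most other endothelial nuclei were in a second cluster, and each library had its own hepatocyte cluster. Pairs of libraries shared 19 to 114 barcodes, at most 1.14% of the smaller library. Levels are given as CPM, in which a gene's UMIs are scaled to the total UMIs of its class and library. Each is read against the CPM of the same gene in free RNA, estimated per library from the 10% of kept barcodes with the fewest UMIs. These held up to 1853 and 1581 UMIs in the CKO libraries and 1861 and 1493 in the WT libraries. The medians of all barcodes were 2042 and 1896 in CKO and 2267 and 1722 in WT. Barcodes of the named classes were not excluded, so the estimate can hold RNA of nuclei as well as free RNA. Levels are compared between classes within a gene and not between genes. Rbpj itself had 72.9 and 41.1 CPM in cholangiocyte-like nuclei of the CKO libraries and 79.4 and 66.9 CPM in those of the WT libraries, and counts outside the deleted part would not show the deletion.

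Among the B-type ephrins, Efnb2 (chr8:8617434-8661242, GRCm38), the arterial ligand, was highest in endothelial-like nuclei. It had 60.8 and 35.8 CPM in the CKO libraries and 122 and 94.6 CPM in the WT libraries, against a mean of 11.5 CPM in free RNA. All 4 libraries lay above their free RNA, and the CKO libraries lay below both WT libraries. Cholangiocyte-like nuclei came next, with 54.7 and 30.8 CPM in CKO and 55.0 and 42.2 CPM in WT. Means over the 4 libraries were 78.2 ± 37.6 CPM in endothelial-like and 45.7 ± 11.6 CPM in cholangiocyte-like nuclei (SD, n = 4), so these neighbours in the order overlapped. Mesenchymal-like (12.8 ± 6.23 CPM) and macrophage-like nuclei (8.86 ± 4.28 CPM) were near free RNA, and hepatocyte-like nuclei (3.83 ± 2.07 CPM) were below it (SD, n = 4 each).

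Efnb1 (chrX:99136130-99148991), the X-linked ephrin-B1, was also highest in endothelial-like nuclei among the 5 large classes but at little above free RNA. Its values were 20.8 and 17.9 CPM in CKO libraries and 19.4 and 18.0 CPM in WT libraries, against a mean of 8.76 CPM in free RNA. The 4 values were within 3 CPM of each other, and the genotypes overlapped. Means in the other 4 classes ran from 6.63 CPM in hepatocyte-like to 12.8 CPM in cholangiocyte-like nuclei.

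**Figure D1:**
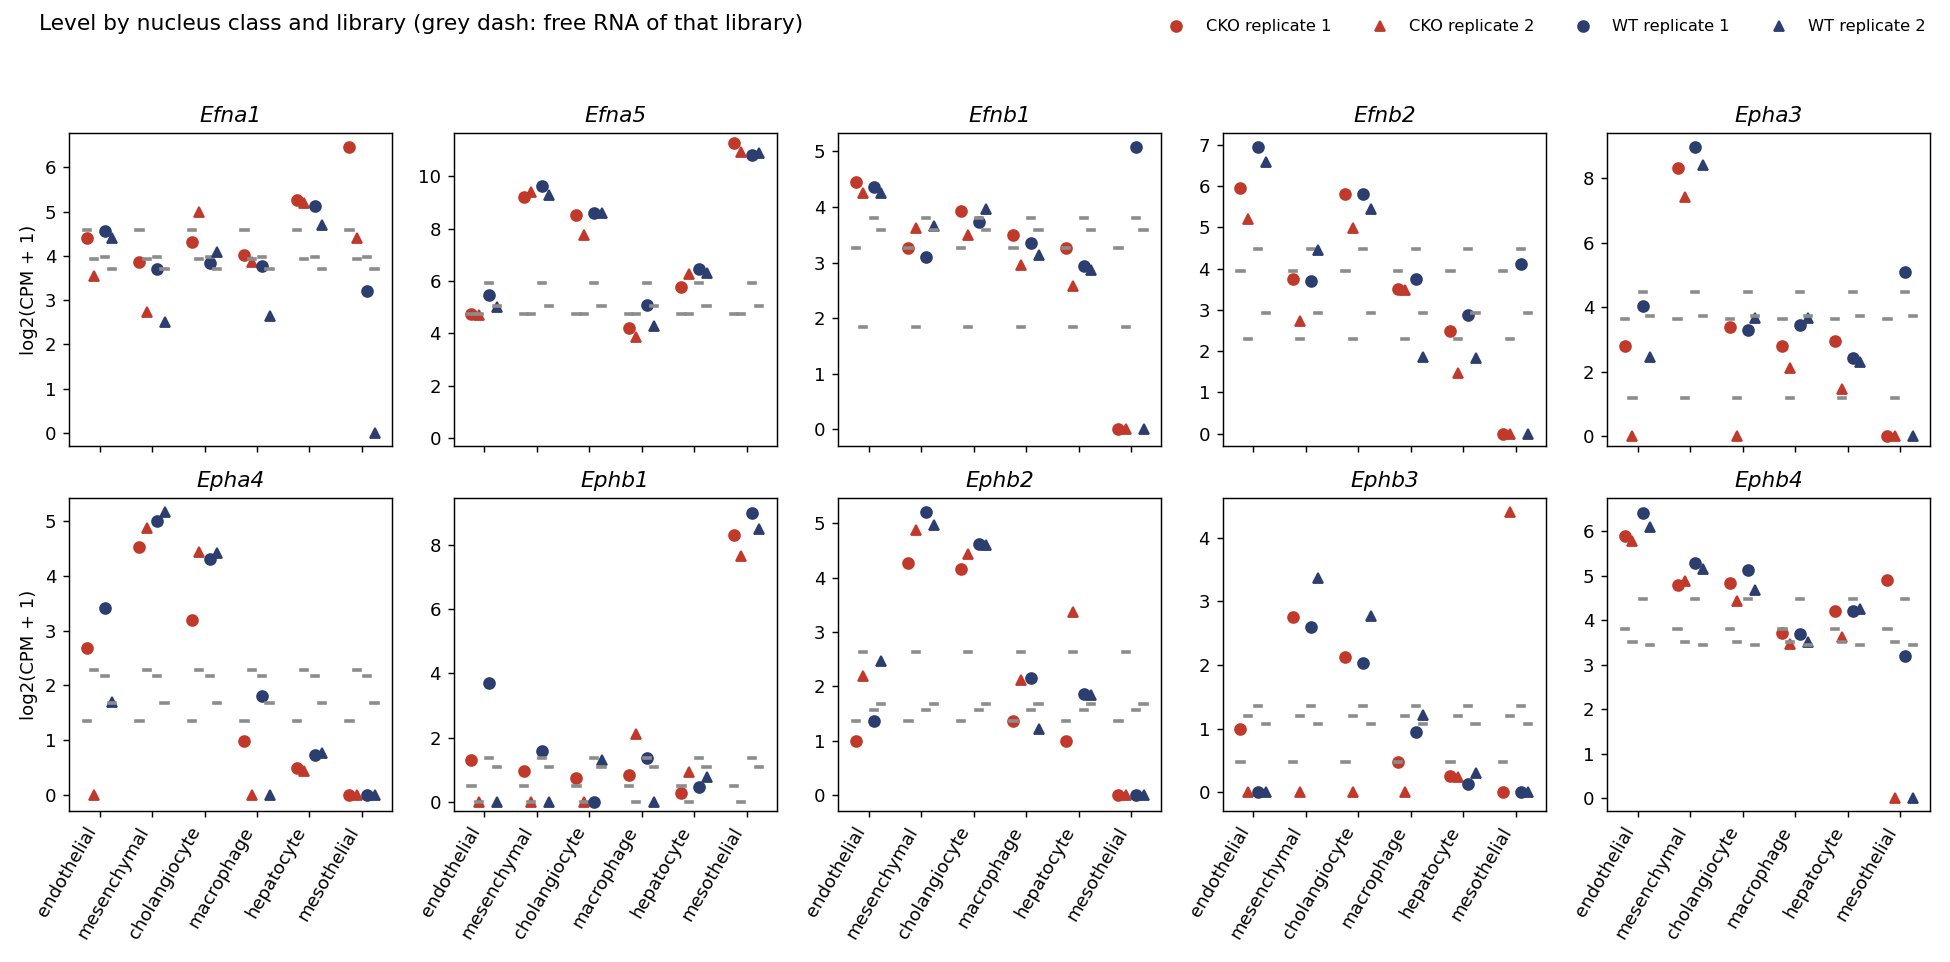
Level of each member, as log2(CPM + 1), in 6 nucleus classes; each point is 1 library (red CKO, left; blue WT, right; circle replicate 1, triangle replicate 2) and grey dashes give the same gene in free RNA of that library. Efnb2 and Ephb4 stand highest in endothelial-like nuclei among the first 5 classes, Epha3 stands above free RNA in mesenchymal-like nuclei, and Efna5 and Ephb1 are highest in mesothelial-like nuclei.

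Efna5 (chr17:62604184-62881317), an A-type ephrin known for its role in axon guidance, had the most UMIs of the members in the 5 large classes, 7648. In mesenchymal-like nuclei, which hold stellate cells and fibroblasts, it had 597 and 670 CPM in CKO libraries and 781 and 617 CPM in WT libraries. In cholangiocyte-like nuclei it had 369 and 216 CPM in CKO libraries and 388 and 384 CPM in WT libraries. The classes did not overlap, and both lay far above the 35.9 CPM of free RNA. Hepatocyte-like nuclei followed with 74.0 ± 14.1 CPM, while endothelial-like (31.5 ± 8.55 CPM) and macrophage-like nuclei (20.4 ± 8.39 CPM) lay at or below free RNA (SD, n = 4 each).

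The small mesothelial-like cluster, 32 CKO and 62 WT nuclei from the liver surface lining by its markers, stood above all 5 large classes for Efna5. It had 2486 and 1951 CPM in the CKO libraries and 1814 and 1907 CPM in the WT libraries. This cluster raised 6 of 6 mesothelial markers and also 5 of 13 cholangiocyte markers. Mesothelial-like nuclei were a source of Ephb1 as well, described with the receptors.

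Efna1 (chr3:89271733-89281142), an A-type ephrin first described in endothelium as a cytokine-induced gene, was highest in hepatocyte-like nuclei among the 5 large classes. Its values there were 37.5 and 35.5 CPM in CKO libraries and 33.7 and 24.8 CPM in WT libraries, against a mean of 16.04 CPM in free RNA. Cholangiocyte-like (19.8 ± 7.69 CPM) and endothelial-like nuclei (18.5 ± 5.25 CPM) were close to free RNA, and macrophage-like (11.6 ± 4.39 CPM) and mesenchymal-like nuclei (8.95 ± 4.44 CPM) were below its mean (SD, n = 4 each).

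Among the A-type receptors, Epha3 (chr16:63543534-63864175), whose main ligand is ephrin-A5, was detected above free RNA in mesenchymal-like nuclei alone among the 5 large classes. It had 318 and 170 CPM in CKO libraries and 492 and 341 CPM in WT libraries, so the genotypes did not overlap. The means of the other 4 large classes ran from 4.23 CPM in hepatocyte-like to 7.71 CPM in macrophage-like nuclei, all below the 11.4 CPM of free RNA. Mesenchymal-like nuclei thus held high levels of both Efna5 and Epha3.

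Epha4 (chr1:77367185-77515088), a receptor that binds both A-type and B-type ephrins, was highest in the same class, with 22.1 and 28.4 CPM in CKO libraries and 31.2 and 34.8 CPM in WT libraries. Cholangiocyte-like nuclei had 8.11 and 20.5 CPM in CKO libraries and 18.9 and 20.4 CPM in WT libraries. The low value was that of CKO replicate 1, on 12 UMIs, and the value of CKO replicate 2 rests on 2 UMIs. Free RNA had a mean of 2.79 CPM, and the other large classes had means of 0.528 to 4.35 CPM.

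Of the B-type receptors, Ephb4 (chr5:137350109-137378669), the venous receptor for ephrin-B2, was highest in endothelial-like nuclei, with 58.3 and 53.8 CPM in CKO libraries and 84.9 and 67.6 CPM in WT libraries. Each value was above every value of the other 4 large classes. Mesenchymal-like (32.1 ± 5.34 CPM) and cholangiocyte-like nuclei (26.8 ± 5.75 CPM) followed and overlapped each other (SD, n = 4 each). Hepatocyte-like nuclei (16.1 CPM) and macrophage-like nuclei (11.1 CPM) were near the 13.6 CPM of free RNA.

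Among the large classes, Ephb2 (chr4:136647539-136835988), a receptor for B-type ephrins, was divided between mesenchymal-like and cholangiocyte-like nuclei. In mesenchymal-like nuclei it had 18.2 and 28.4 CPM in CKO libraries and 35.7 and 30.1 CPM in WT libraries. In cholangiocyte-like nuclei it had 16.9 and 20.5 CPM in CKO libraries and 23.5 and 23.3 CPM in WT libraries. The 20.5 CPM of CKO replicate 2 rests on 2 UMIs, where 3 counts would be 30.8 CPM, so it was not informative at this depth. The classes overlapped, and both means, 28.1 and 21.0 CPM, were above the 2.72 CPM of free RNA.

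Ephb1 (chr9:101922128-102354693), another receptor for B-type ephrins, had between 0.532 and 3.35 CPM on average in the 5 large classes, on 76 UMIs in all. In mesothelial-like nuclei it had 318 and 201 CPM in CKO libraries and 515 and 365 CPM in WT libraries, on 97 UMIs from 94 nuclei. The means there were 260 ± 82.6 CPM in CKO and 440 ± 106 CPM in WT libraries (SD, n = 2 each). They rest on 21 UMIs against 76, with fewer nuclei in CKO. The 95% exact Poisson intervals of CKO replicate 1 (159 to 569 CPM) and WT replicate 2 (194 to 623 CPM) overlapped. The difference was not tested, and the share of all genes with such an order was not determined in this class. Ephb3 (chr16:21204755-21223305), a further receptor for B-type ephrins, stayed at or below a mean of 5.01 CPM in each large class, on 58 UMIs in all, and its level could not be told from 0 in several libraries at this depth.

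Endothelial-like nuclei were next divided by marker UMIs into a vessel type, whose markers belong to arteries, portal veins and central veins, and a sinusoid type, the scavenging endothelium of the liver lobule. Of a small sub-cluster with lymphatic markers, described with the sub-clusters, 3.03% of nuclei were vessel-type and the others were sinusoid-type or tied. No Eph or ephrin gene was used for the division. There were 168 and 10 vessel-type nuclei in the CKO libraries and 233 and 46 in the WT libraries, against 675 and 132 sinusoid-type nuclei in CKO and 1088 and 187 in WT. Vessel-type sums were set against sinusoid-type sums of the same library, with edgeR's quasi-likelihood test and Benjamini-Hochberg adjustment over 5609 genes. For the members tested, p-values matched a normal tail of the log2 difference over its SE. The spread of a single gene over the libraries therefore did not enter, only a spread pooled over genes.

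Ephb4 was higher in vessel-type nuclei of all 4 libraries. It had 75.2 and 110 CPM in vessel-type nuclei of the CKO libraries and 125 and 85.1 CPM in those of the WT libraries, against 54.6 and 49.9 CPM and 75.4 and 61.2 CPM in sinusoid-type nuclei. The 110 CPM of CKO replicate 2 rests on 2 UMIs in 10 nuclei, fewer than 3 counts, so it was not informative at this depth. The log2 difference was 0.64 ± 0.19 (SE), with an edgeR adjusted p of 0.0179. Of all genes tested 6.47% were called, 3.28% of them higher and 3.19% lower in vessel-type nuclei, and Ephb4 was the 1 member called of 4 that passed the count filter. The difference stayed at 0.47 to 0.67 with each library left out in turn, but the call depended on single libraries, with edgeR adjusted p of 0.0691 when CKO replicate 1 was left out, 0.829 when WT replicate 1 was left out and 0.0729 when WT replicate 2 was left out, and DESeq2 gave 0.587.

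Efnb2 did not pass. Its vessel-type values were 62.2 and 0 CPM in CKO libraries and 168 and 109 CPM in WT libraries, against 59.2 and 37.4 CPM and 111 and 93.3 CPM in sinusoid-type nuclei. The 0 comes from the 10 vessel-type nuclei of CKO replicate 2, for which 3 counts would have been 164 CPM, so it was not informative at this depth. The log2 difference was 0.43 ± 0.18 (SE, edgeR adjusted p = 0.159). It was 0.06 when WT replicate 1 was left out, and 0.69 with an edgeR adjusted p of 0.000311, past the threshold, when the types were taken from sub-clusters. Efna1 had a log2 difference of 0.90 ± 0.36 (SE, edgeR adjusted p = 0.131), and of 1.37 when WT replicate 1 was left out. It was higher in vessel-type nuclei of all 4 libraries, on 37 against 87 UMIs, but in CKO replicate 2 on 2 against 1.

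The other members had too few UMIs to be tested in this comparison or gave no difference beyond error. Efna5, tested, had a log2 difference of -0.28 ± 0.32 (SE, edgeR adjusted p = 0.881). Epha4 had 31 UMIs in vessel-type and 11 in sinusoid-type nuclei, and Ephb1 had 29 against 11, out of 1063798 UMIs of all genes in vessel-type and 4664255 in sinusoid-type nuclei. Of the vessel-type UMIs of Ephb1, all 29 came from WT replicate 1. Neither gene passed the count filter.

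**Figure D2:**
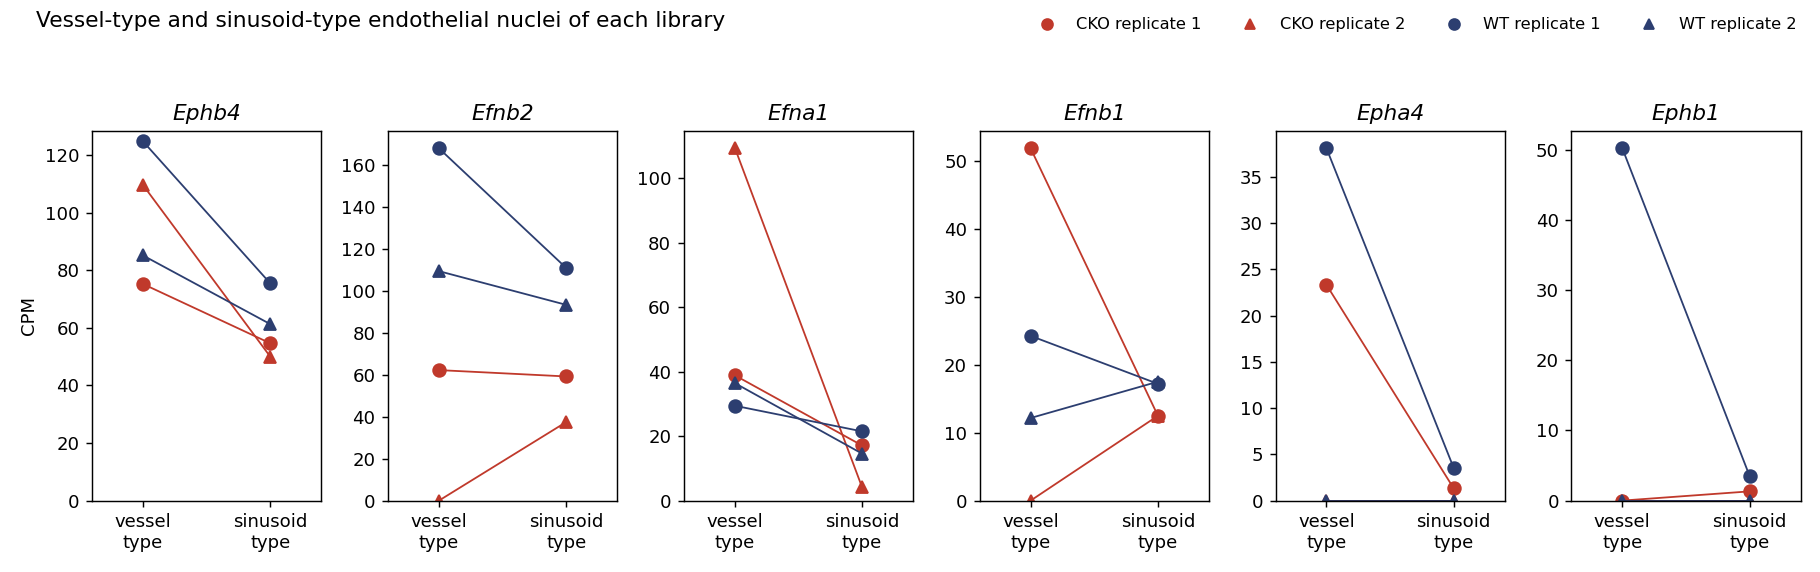
CPM of 6 members in vessel-type (left) and sinusoid-type (right) endothelial nuclei; a line joins the 2 sums of 1 library. Ephb4 and Efna1 are higher in the vessel type in all 4 libraries, Efnb2 in 3 of 4, and Ephb1 in the vessel type is above 0 in WT replicate 1 alone. The vessel-type points of CKO replicate 2 come from 10 nuclei, with 2 UMIs each for Ephb4 and Efna1.

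Within the vessel type, Efnb2 and Ephb4 differed in where they were high. Nuclei with more UMIs of arterial markers than of central vein markers had 108 CPM of Efnb2 in CKO replicate 1 and 251 and 151 CPM in the WT libraries, and CKO replicate 2 had no such nucleus. Nuclei with more central vein markers had 16.5 and 0 CPM in CKO libraries and 47.5 and 0 CPM in WT libraries. Pooled over libraries, Efnb2 was at 196 CPM (95% exact Poisson interval 153 to 246) in 155 arterial-marker nuclei and at 32.7 CPM (16.3 to 58.4) in 138 central-vein-marker nuclei.

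Ephb4 had the reverse order, with overlapping intervals. It had 66.6 CPM in arterial-marker nuclei of CKO replicate 1 and 112 and 60.4 CPM in those of the WT libraries. Central-vein-marker nuclei had 99.2 and 148 CPM in CKO libraries and 142 and 154 CPM in WT libraries. Pooled, the levels were 92.4 CPM (64.0 to 129) in arterial-marker and 128 CPM (92.4 to 172) in central-vein-marker nuclei. In each of the 3 libraries with both kinds of nuclei, the Efnb2 value was higher on the arterial side and the Ephb4 value on the central vein side. The central-vein-marker groups of CKO replicate 2 and WT replicate 2 held 4 and 11 nuclei, in which 3 counts would be 445 and 154 CPM, so their Efnb2 values of 0 were not informative at this depth, and their Ephb4 values rest on 1 and 3 UMIs. The intervals cover counting error only, and no test was made on these small groups.

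**Figure D3:**
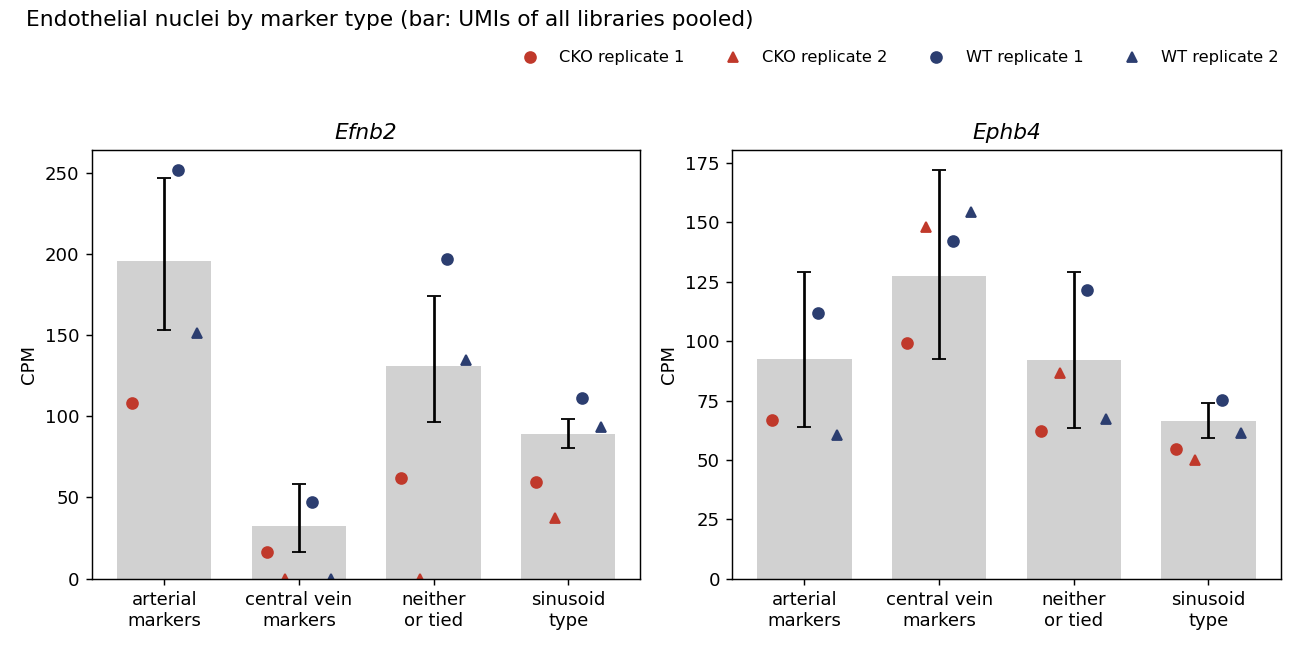
CPM of Efnb2 and Ephb4 in vessel-type nuclei divided by arterial and central vein markers, with sinusoid-type nuclei for comparison; bars pool the UMIs of all libraries with 95% exact Poisson intervals, and points are single libraries (red CKO, blue WT). Efnb2 is lowest in the central vein group and Ephb4 highest there.

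Sub-clusters of the endothelial nuclei, made without Eph and ephrin genes, gave finer places of high level, given as descriptions of pooled UMIs with 95% exact Poisson intervals. Sub-cluster 3, led by the central vein gene Rspo3, had 142 CPM of Ephb4 (101 to 193) and 14.5 CPM of Efnb2 (3.95 to 37.2). It also had 43.5 CPM of Epha4 (22.5 to 76.1). Sub-cluster 0, led by Mecom and Vegfc and with 4 of 7 arterial markers raised, had 153 CPM of Efnb2 (126 to 184) and 57.7 CPM of Efnb1 (41.8 to 77.8). Sub-cluster 9, led by Col8a1, combined 127 CPM of Efnb2 with 46.9 CPM of Epha4 (22.5 to 86.2), and 82 of its 90 nuclei were from WT libraries.

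Ephb1 in endothelium was concentrated in very few nuclei. Sub-cluster 7, led by Nav3 and holding Unc5b and Vash1 among its leading genes, had 25 of the 41 endothelial UMIs of Ephb1 in 18 of the 2639 nuclei, or 549 CPM (355 to 810). The same nuclei had 614 CPM of Efnb2 (408 to 888), above every other sub-cluster. Of the 18 nuclei, 1 was from a CKO library and 17 were from WT libraries, 14 of them from WT replicate 1. This sub-cluster raised 1 of 12 vessel markers, none of 9 sinusoid markers and none of 7 arterial markers. No finer name was given to it, and it counted as vessel-type where the types were taken from sub-clusters.

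Sub-cluster 13 raised 4 of 5 lymphatic markers and was led by Csmd1 and Mmrn1. Its 33 nuclei had 336 CPM of Efna5 (227 to 480) and 89.6 CPM of Ephb1 (38.7 to 176). Efnb2 was not detected in it, which allows up to 33.6 CPM at 3 counts. No other endothelial sub-cluster had more than 42.6 CPM of Efna5.

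**Figure D4:**
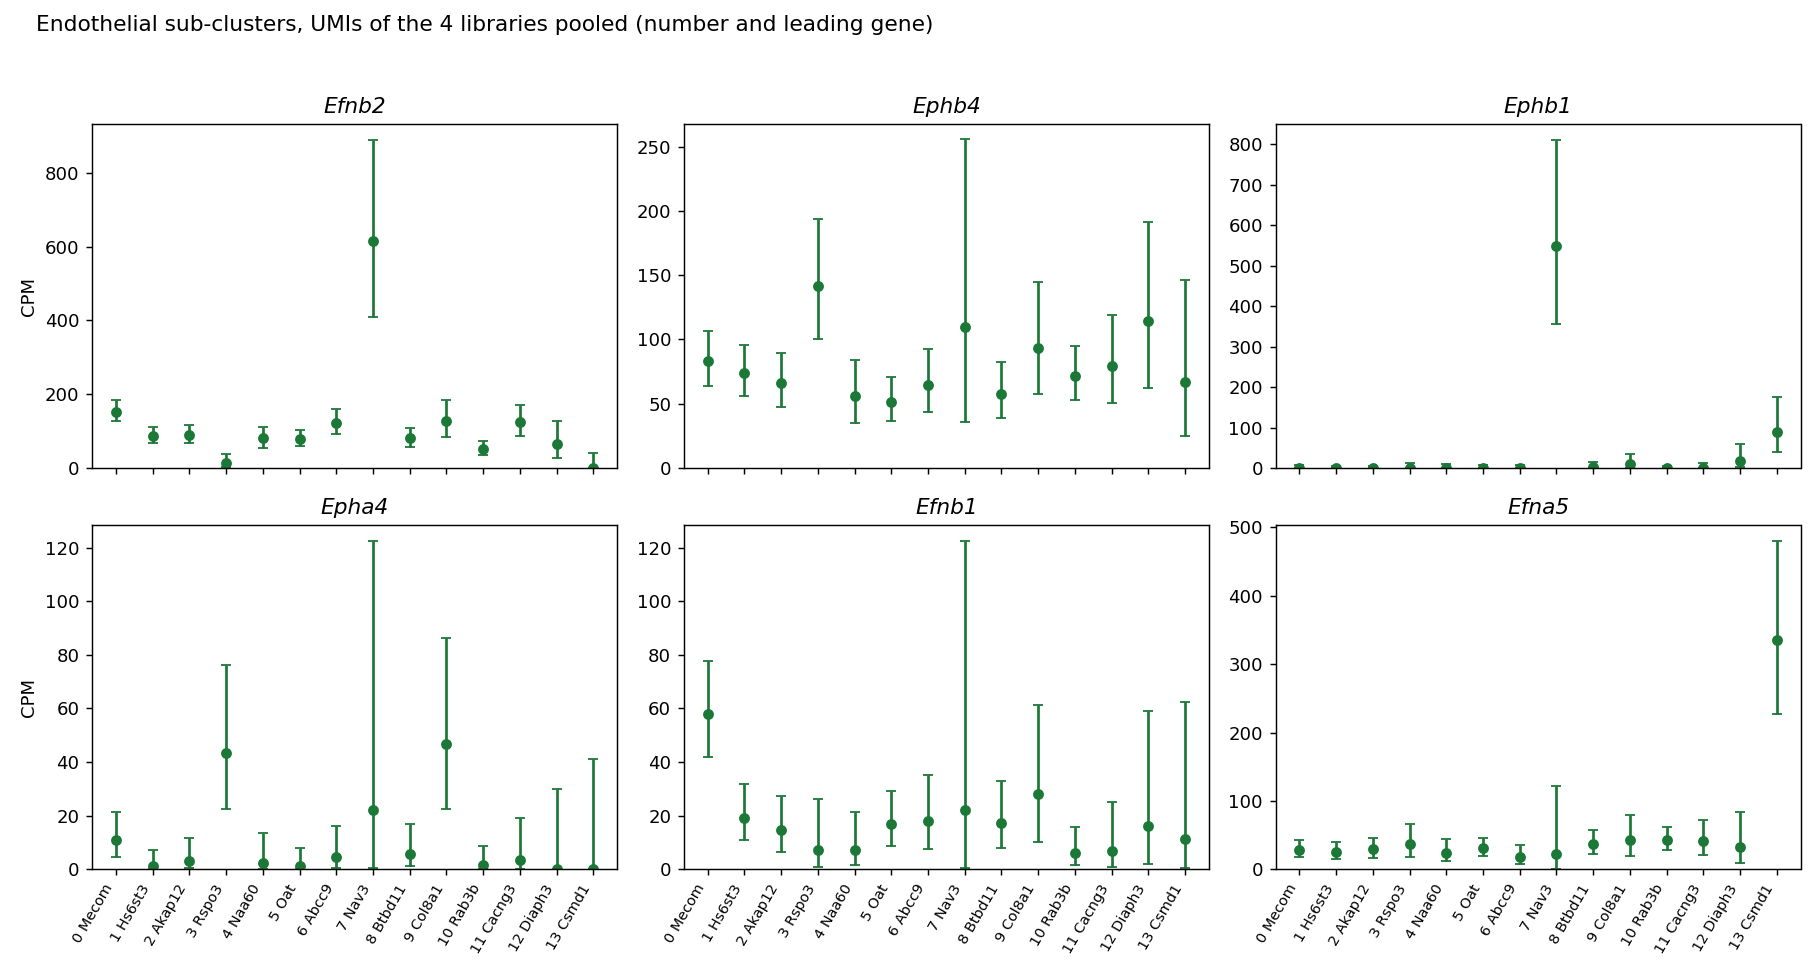
CPM of 6 members in the 14 endothelial sub-clusters, numbered and named by their first leading gene; points pool the UMIs of the 4 libraries and bars are 95% exact Poisson intervals. Sub-cluster 7 stands apart for Efnb2 and Ephb1, sub-cluster 13 for Efna5, and sub-clusters 3 and 9 for Epha4.

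Levels also varied among sub-clusters of mesenchymal-like and cholangiocyte-like nuclei. Across 11 mesenchymal sub-clusters, Epha3 ran from 239 to 495 CPM and Efna5 from 534 to 893 CPM. Ephb2 was at 79.6 CPM (45.5 to 129) in sub-cluster 9, led by Plcxd3 and Wt1, and at 10.5 CPM (2.17 to 30.8) in sub-cluster 0, led by Dcc. Across 11 cholangiocyte sub-clusters, Efna5 ran from 299 to 600 CPM in 10 of them and was at 84.5 CPM (70.1 to 101) in sub-cluster 10, led by Nrg1 and Zbtb16. That sub-cluster was also the lowest for Efnb2, with 17.6 CPM (11.4 to 26.0), for Epha4, with 4.23 CPM (1.55 to 9.20), and for Ephb2, with 4.93 CPM (1.98 to 10.2). It held 106 of 500 and 13 of 45 cholangiocyte-like nuclei of the CKO libraries, and 207 of 1442 and 48 of 313 of the WT libraries. The part of this make-up in differences between genotypes was not tested. Sub-cluster 0, led by Piezo2 and Ltbp2, was the highest for Efna5 and Epha4, with 600 and 38.3 CPM, and had 43.1 CPM of Ephb2.

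No member passed the test between CKO and WT in endothelial-like, mesenchymal-like, cholangiocyte-like, macrophage-like or hepatocyte-like nuclei, nor in either endothelial type (edgeR's quasi-likelihood test, adjusted p over all genes tested in the class). Of the 10 members, 5, 5, 8, 6 and 7 passed the count filter in the 5 classes in that order. In these classes edgeR called 0% of all genes tested, with 510 of 10115 genes at an unadjusted p under 0.05 in endothelial-like and 560 of 10462 in cholangiocyte-like nuclei. In vessel-type nuclei it called 0.0657% of 4566 genes. DESeq2 called no member either.

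Efnb2 in endothelial nuclei had the smallest unadjusted p of the members. Its mean was 48.3 ± 17.6 CPM in CKO and 108 ± 19.0 CPM in WT libraries (SD, n = 2 each), and both CKO libraries lay below both WT libraries. The log2 change was -0.87 ± 0.28 (SE), with an edgeR adjusted p of 0.902. It was -0.81 ± 0.28 in sinusoid-type nuclei (edgeR adjusted p = 0.9999) and -1.24 ± 0.45 in vessel-type nuclei (edgeR adjusted p = 0.766). The difference of the vessel-type and sinusoid-type changes was itself -0.51 ± 0.45 (SE, edgeR adjusted p = 0.99998). Leaving out CKO replicate 1 gave -1.26 and leaving out CKO replicate 2 gave -0.72 in endothelial-like nuclei, and neither passed. In vessel-type nuclei, leaving out CKO replicate 2 gave -1.10 and leaving out WT replicate 2 gave -1.45, while without CKO replicate 1 the remaining CKO library had 0 UMIs in 10 nuclei and the fitted value, -8.13, is not interpretable.

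Other values moved with genotype in the same nuclei. The summed level of the 14 endothelial markers was 4722 and 4849 CPM in CKO and 7761 and 6194 CPM in WT endothelial-like nuclei. The summed level of 11 secreted hepatocyte transcripts, of which none was raised over free RNA, was 51360 and 56978 CPM in CKO and 40351 and 42880 CPM in WT. In free RNA the same transcripts summed to 64067.2 and 65789.3 CPM in the CKO libraries and 55766.5 and 57451.1 CPM in the WT libraries. On the plain CPM scale the median of all genes was -0.20 (log2, CKO over WT), which the scaling of the fit brought to 0.01, and 27.9% of all genes had both CKO libraries below both WT libraries, against 6.83% above. Of the 5 members that passed the filter, Efna1, Efna5, Efnb2 and Ephb4 had both CKO libraries below. In sinusoid-type nuclei this held for 4 of 5 members, as for 26.3% of all genes below and 7.08% above, and in vessel-type nuclei for Efnb2 of 2 members, as for 22.3% below and 12% above. The part of free RNA in the Efnb2 values was not tested.

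Ephb4 had 56.0 ± 3.22 CPM in CKO and 76.2 ± 12.2 CPM in WT endothelial-like nuclei (SD, n = 2 each). Its log2 change after scaling was -0.25 ± 0.26 (SE), about its standard error (edgeR adjusted p = 0.9998). It was -0.21 ± 0.27 (SE, edgeR adjusted p = 0.9999) in sinusoid-type and -0.40 ± 0.41 (SE, edgeR adjusted p = 0.906) in vessel-type nuclei. Without CKO replicate 1 the last value was 0.07.

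In mesenchymal-like nuclei Epha3 had 244 ± 104 CPM in CKO and 416 ± 107 CPM in WT libraries (SD, n = 2 each), with -0.57 ± 0.32 as its log2 change (SE, edgeR adjusted p = 0.772). That value was -1.05 without CKO replicate 1 and -0.30 without CKO replicate 2. The 14 mesenchymal markers summed to 9524 and 6961 CPM in CKO and 10475 and 7155 CPM in WT nuclei, so both replicate 2 libraries were lower than both replicate 1 libraries, as they were for Epha3 within each genotype. Ephb2 gave -0.58 ± 0.39 (SE, edgeR adjusted p = 0.821) and Epha4 gave -0.31 ± 0.38 (SE, edgeR adjusted p = 0.940). Both CKO libraries were below both WT libraries for Epha3, Epha4, Ephb2 and Ephb4, 4 of the 5 that passed the filter, as for 26.8% of all genes in this class, and none was above, as 9.73% were.

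In cholangiocyte-like nuclei, the biliary lining cells, Efnb2 had 42.8 ± 16.9 CPM in CKO and 48.6 ± 9.11 CPM in WT libraries (SD, n = 2 each), and the genotypes overlapped. Efna5 had 292 ± 108 CPM in CKO and 386 ± 2.75 CPM in WT libraries (SD), so its log2 change of -0.27 was smaller than its SE of 0.31 (edgeR adjusted p = 0.99995). It was -0.74 without CKO replicate 1 and -0.018 without CKO replicate 2. Epha4, whose promoter window holds the Rbpj core, had a log2 change of -0.98 ± 0.49 (SE, edgeR adjusted p = 0.959), which was 0.25 without CKO replicate 1. Ephb2 had -0.34 ± 0.36 (SE, edgeR adjusted p = 0.99995), and -0.036 without CKO replicate 1, where the CKO value rests on 2 UMIs. The 13 cholangiocyte markers summed to 5551 and 4693 CPM in CKO and 7163 and 6214 CPM in WT cholangiocyte-like nuclei. The 11 secreted hepatocyte transcripts summed to 37583 and 44554 CPM in CKO and 29562 and 33838 CPM in WT, below their sums in free RNA of each library. Their part in these changes was not tested, nor was that of the uneven share of sub-cluster 10 between libraries. Efnb1, the other gene with the core, had 12.2 ± 2.77 CPM in CKO and 13.4 ± 1.60 CPM in WT libraries (SD, n = 2 each). Of the 8 members tested, Ephb2 and Efna5 had both CKO libraries below both WT libraries, as for 21.2% of all genes, and Efna1 had both above, as for 8.98%. In CKO replicate 2 the values of Ephb2 and Efna1 rest on 2 and 3 UMIs.

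In hepatocyte-like nuclei Efna1 had 36.5 ± 1.46 CPM in CKO and 29.2 ± 6.32 CPM in WT libraries (SD, n = 2 each), with 0.40 ± 0.21 as its log2 change (SE, edgeR adjusted p = 0.999998). Both CKO libraries were above both WT libraries for Efna1, as for 7.66% of all genes, and below for Efna5, as for 16.6%, among the 7 members tested. Ephb2 had 0.993 and 9.27 CPM in CKO libraries and 2.63 and 2.57 CPM in WT libraries, so 1 CKO library lay on each side of WT. With CKO replicate 1 left out the log2 change of this gene was 2.01, from a fit with 1 CKO library. In macrophage-like nuclei Ephb1, on 15 UMIs, was the only member with a mean above free RNA. Of 6 members tested there, Epha3 and Efna5 had both CKO libraries below, as for 25.7% of all genes. Efna1 had both above, as for 6.43%. CKO replicate 2 held 1 UMI of Epha3, 4 of Efna5 and 4 of Efna1 in this class.

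**Figure D5:**
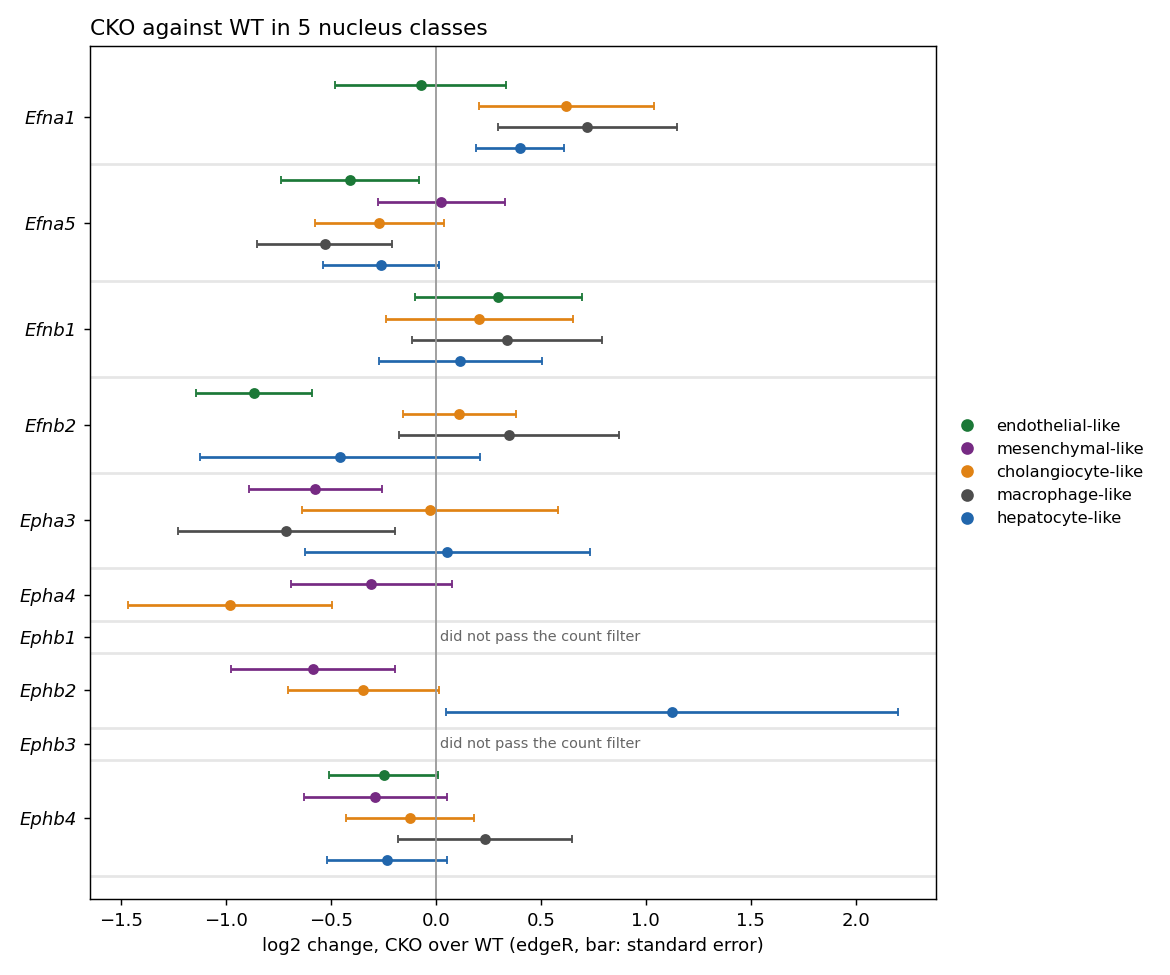
Log2 change of each member, CKO over WT, in the classes where it passed the count filter; points are edgeR estimates and bars standard errors. None of the 31 changes shown passed the test, and Efnb2 in endothelial-like nuclei lies at -0.87.

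Of the 12 other Eph and ephrin genes, Epha7, Epha1 and Epha2 reached over 20 CPM in a large class. Epha7, a receptor for A-type ephrins, had 269 ± 91.0 CPM in CKO and 318 ± 118 CPM in WT mesenchymal-like nuclei (SD, n = 2 each), against 14.7 CPM in free RNA. In cholangiocyte-like nuclei it had 48.6 and 30.8 CPM in CKO libraries and 89.5 and 74.2 CPM in WT libraries, with no overlap. That gave -0.78 ± 0.26 on the log2 scale (SE, edgeR adjusted p = 0.899). Epha1 (38.9 ± 6.64 CPM) and Epha2 (24.3 ± 5.60 CPM) were highest in hepatocyte-like nuclei (SD, n = 4 each). Between 1 and 4 of the 12 could be tested in each of the 5 large classes, and none was called. Their median log2 change in cholangiocyte-like nuclei was -0.21 over 3 genes, against -0.02 over all genes. The 2 with the smallest unadjusted p were Epha7 and Epha6 in endothelial-like, Epha1 and Epha7 in sinusoid-type, Epha7 and Epha1 in cholangiocyte-like, Epha2 and Epha1 in macrophage-like and Epha2 and Epha6 in hepatocyte-like nuclei.

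Among 35 signalling partners of Eph receptors and ephrins, which include guanine nucleotide exchange factors, adaptors, kinases and cleaving proteases, 23 were tested between the endothelial types. Of these, 2 were called higher and 3 lower in vessel-type nuclei, where 3.28% of all genes were called higher and 3.19% lower, and their median log2 difference was 0.04, against -0.00 over all genes. Chn2, which encodes beta-chimaerin, a Rac-inactivating protein, rose in vessel-type nuclei by 1.47 ± 0.15 on the log2 scale (SE, edgeR adjusted p = 3.44e-21). Kalrn, a guanine nucleotide exchange factor, rose by 1.34 ± 0.15 (SE, edgeR adjusted p = 1.11e-17). Vav3, an exchange factor recruited by Eph receptors, the Src-family kinase Fyn and the scaffold Itsn1 had log2 differences of -0.93, -0.77 and -0.51, with edgeR adjusted p of 2.30e-07, 2.35e-06 and 0.0176.

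Between CKO and WT, no signalling partner was called in any class, and 31, 29, 33, 33 and 33 of the 35 were tested in endothelial-like, mesenchymal-like, cholangiocyte-like, macrophage-like and hepatocyte-like nuclei. Kalrn in endothelial-like nuclei had a log2 change of -0.73 ± 0.26 (SE, edgeR adjusted p = 0.973). Grip1, a scaffold that binds B-type ephrins, had -1.08 ± 0.23 (SE, edgeR adjusted p = 0.999998) in hepatocyte-like nuclei. The others with the smallest unadjusted p were Arhgef15 in endothelial-like, Ptpn13 and Grip1 in mesenchymal-like, Ngef and Fyn in cholangiocyte-like, Ngef and Grip1 in macrophage-like and Abl1 in hepatocyte-like nuclei, and Arhgef15, Ngef, Kalrn and Yes1 in the 2 endothelial types.

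Over the 5 large classes and 4 libraries, 20 points that share libraries and depth, the genes most alike to each member among 14160 were as follows, by Pearson's r of log2(CPM + 1). Efnb2 was most alike to Samd12 (0.97), Lama4 (0.95) and Ntn4 (0.94), and Ephb4 to Arhgap23 (0.94), 4931406P16Rik (0.94) and Bace2 (0.94). Efnb1 was most alike to Srgap1 (0.94), Cdh13 (0.93) and Galnt18 (0.93). Epha3 was most alike to Pde3a (0.97), Vipr1 (0.97) and Tbx20 (0.96), and Epha4 to Arhgef25 (0.97), Kirrel (0.95) and Fgf12 (0.95). Efna5 was most alike to Ank3 (0.98) and Frmd6 (0.96). Ephb2 was most alike to Efna5 (0.90), another member, and Arhgef17 (0.89), and Efna1 to Mindy1 (0.88), Grpel2 (0.87) and Slc19a2 (0.87).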

How the data were processed

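Single-nucleus RNA-seq libraries were made from fresh-frozen mouse liver with a 3' v3.1 droplet kit, per the labels' protocols. The deposited values are UMI counts per gene and barcode, made by the authors with Cell Ranger 5.0.1 on mm10, per the submitters' processing notes; whether intronic reads were counted is not given in the sources used here.

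Barcodes with 500 genes or more were kept and doublets removed by score, with an expected rate that grew with the number of barcodes. Nuclei were clustered on 2000 variable genes without Eph and ephrin genes (scanpy 1.11.5, 30 components, 15 neighbours, Leiden resolution 1). A cluster was named when at least 3 markers and 0.5 of those listed were 1.5 times free RNA; this rule and the marker split of endothelium were set after seeing the data. Sums per library and class were tested with edgeR 4.0.16 (TMM scaling, filterByExpr, quasi-likelihood), with Benjamini-Hochberg adjustment over all genes tested and a threshold of 0.05. Class against class was not tested. The vessel against sinusoid fit had the library as a term. Alternatives included DESeq2 1.42.0, other scalings, filters and clusterings, and leaving out each library. The fits were tested on simulated counts. Replicate numbers come from the labels, which do not say that they pair libraries. Members and gene lists were chosen with earlier results of these data known. The genes named are the 10 members, the 2 genes of each other list with the smallest p, any called, and the 3 most alike, of which 1 gene is not reported here. The 7 added sequences of the reference were left out. Intervals and floors (3 counts) cover counting error only, at 95%.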

Additional observations from a re-analysis of the deposited data

Results flagged for a closer look

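Efna1 was lower in both CKO libraries than in both WT libraries in endothelial-like nuclei, by -5.90 CPM (CKO minus WT means). It was higher in both CKO libraries in cholangiocyte-like nuclei, by 10.2 CPM, in macrophage-like nuclei, by 5.37 CPM, and in hepatocyte-like nuclei, by 7.26 CPM. Of all genes, 27.9% had both CKO libraries below in endothelial-like nuclei. In the other classes 8.98%, 6.43% and 7.66% had both above, in that order. CKO replicate 2 held 3 Efna1 UMIs in endothelial-like, 3 in cholangiocyte-like and 4 in macrophage-like nuclei. WT replicate 2 held 4 in macrophage-like nuclei. The difference between classes was not tested. In endothelial-like nuclei the median of all genes was also lower on the plain CPM scale, at -0.20 (log2), and after scaling the Efna1 change was -0.07 ± 0.41 (SE), within its error of 0. Hepatocyte-like nuclei were the only one of these 4 classes whose mean level was over 1.5 times the 16.04 CPM of free RNA, and none of the changes passed edgeR's test.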

How the results depend on the processing

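The class with the highest mean level was the same for 10 of 10 members under all 3 other clusterings. Between vessel-type and sinusoid-type nuclei, 1 member was called, Ephb4, with adjusted p of 0.0171 to 0.829 over the alternatives. The count was 2 with no count filter (Epha4 and Ephb1, not Ephb4) and 2 when the types were taken from sub-clusters (Ephb4 and Efnb2). It was 0 without doublet removal, 0 at Leiden resolution 2, 0 with DESeq2, and 0 to 1 with each library left out. Of all genes tested, 363 of 5609 were called in the main fit. With no count filter 421 of 19595 were called, and with the sub-cluster types 425 of 5871. The numbers were 383 of 5881 without doublet removal, 348 of 5883 at Leiden resolution 2 and 163 of 5609 with DESeq2. With single libraries left out they ran from 172 of 4703 to 453 of 6872. Between CKO and WT, 0 members were called in hepatocyte-like nuclei with all libraries. Ephb2 there had a log2 change of 1.12 with all libraries and 2.01 without CKO replicate 1. Without that library the sign of 4 uncalled changes also turned: over the libraries left out, Ephb4 in vessel-type nuclei ran from -0.52 to 0.070, Epha4 in mesenchymal-like nuclei from -0.54 to 0.11, Ephb2 there from -0.76 to 0.020 and Epha4 in cholangiocyte-like nuclei from -1.15 to 0.25. Without CKO replicate 1 these changes rest on 2, 5, 5 and 2 UMIs of CKO replicate 2, in that order. The cause was not tested.

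Over all genes, 0 calls in endothelial-like nuclei became 305 without CKO replicate 1 and 397 without CKO replicate 2, and the range with each library left out was 24 to 348 in mesenchymal-like nuclei, where the full fit made 0. With the replicate number as a block (replicate block), 0 members were called in each of the 7 classes and types, and 28 genes in endothelial-like nuclei. The deviations of same-numbered libraries correlated at 0.0398 to 0.261, over 2 pairs, so the numbers were not taken as pairing. For the vessel type, thinned sums, and for Efnb2 and Ephb4 leaving out WT replicate 1, gave no value. The 10 vessel-type nuclei of CKO replicate 2 limit what can be seen there.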
